A study of Homo sapiens with 14 samples.

Results

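The HOX genes were followed through an RNA-seq series on U2OS cells, an established human osteosarcoma line, treated with small molecules directed at chromatin proteins or at the kinase mTOR. The members were all 39 genes named HOXA, HOXB, HOXC or HOXD plus a number, among 22919 gene symbols shared by the deposited tables. Of these, 11 belonged to the HOXA cluster on chromosome 7, 10 to HOXB on chromosome 17, 9 to HOXC on chromosome 12 and 9 to HOXD on chromosome 2. There were 14 libraries in 10 groups. Replicates 1 and 2 were sequenced for GSK343 (an inhibitor of the histone methyltransferase EZH2; 10 μM, 24 h), rapamycin (an mTOR inhibitor; 5 μM, 24 h), 2-PCPA (an inhibitor of the H3K4 demethylase KDM1A; 1 mM, 12 h) and the solvent DMSO (0.5% by volume, with no time given in the labels). A single library was made for GSK-J4 (an inhibitor of the KDM6 demethylases, given at 20 μM for 12 h) and for BIX-01294, an EHMT methyltransferase inhibitor (given at 5 μM for 12 h). The same holds for BRD4770, likewise directed at EHMT methyltransferases (given at 20 μM for 24 h), for the histone deacetylase inhibitors SAHA (1 μM over 24 h) and VPA (20 μM over 24 h as labelled, a low dose for this compound), and for UNC1215 (a ligand of the methyl-lysine reader L3MBTL3, given at 50 μM for 24 h). All groups were the same cell line with no genotype change. Replicate 1 of every group stood in 1 table and replicate 2 of the replicated groups in another, so every compound was set against the DMSO library of its own table, and compounds of 1 table share that library.

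HOX genes encode homeodomain transcription factors that give cells along the body axis their position, and the genes lie in their clusters in the order in which they are used from head to tail. Polycomb repressive complex 2, with EZH2 as its enzyme, places trimethylation on lysine 27 of histone H3 over silent HOX genes. The KDM6 demethylases remove that mark, and MLL complexes, which methylate lysine 4, keep active HOX genes on. Cultured cells carry a HOX pattern inherited from the tissue they came from, which makes the clusters a common readout of Polycomb inhibition.

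Promoter sequences are shown for 5 genes with different behaviour in these data. HOXA4, HOXA10 and HOXA13 reached their highest level in GSK-J4 cells, HOXC4 shared 1 value with its neighbours in the replicate 2 table, and HOXD13 was listed at 0 in all 14 libraries. The windows run from 250 bases before to 50 bases after a transcription start annotated by RefSeq on GRCh38.p14 and are written 5′ to 3′ on the gene's strand, with CpG dinucleotides in capitals. They lie at chr7:27130708-27131007 (minus strand) for HOXA4, at chr7:27179812-27180111 and chr7:27174271-27174570 (minus strand) for an upstream and a downstream start of HOXA10, at chr7:27200042-27200341 (minus strand) for HOXA13, at chr12:54016638-54016937 (plus strand) for HOXC4 and at chr2:176092471-176092770 (plus strand) for HOXD13.
HOXA4: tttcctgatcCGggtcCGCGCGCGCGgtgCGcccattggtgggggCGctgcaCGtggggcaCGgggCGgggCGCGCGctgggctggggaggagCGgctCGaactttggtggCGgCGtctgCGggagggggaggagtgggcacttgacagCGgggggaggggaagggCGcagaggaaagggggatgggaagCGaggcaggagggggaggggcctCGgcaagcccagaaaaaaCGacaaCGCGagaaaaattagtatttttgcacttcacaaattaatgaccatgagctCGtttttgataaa
HOXA10 upstream start: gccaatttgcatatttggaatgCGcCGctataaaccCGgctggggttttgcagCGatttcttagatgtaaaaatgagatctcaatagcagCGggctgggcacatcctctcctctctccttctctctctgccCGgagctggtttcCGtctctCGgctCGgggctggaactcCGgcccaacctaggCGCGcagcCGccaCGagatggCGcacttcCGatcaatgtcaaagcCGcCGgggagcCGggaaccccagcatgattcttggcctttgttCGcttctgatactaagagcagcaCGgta
HOXA10 downstream start: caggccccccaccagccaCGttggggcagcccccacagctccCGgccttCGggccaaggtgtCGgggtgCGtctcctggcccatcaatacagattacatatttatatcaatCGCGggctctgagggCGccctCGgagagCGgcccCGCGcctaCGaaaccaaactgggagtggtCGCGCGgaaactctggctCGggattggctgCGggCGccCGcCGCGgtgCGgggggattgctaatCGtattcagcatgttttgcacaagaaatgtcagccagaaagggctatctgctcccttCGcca
HOXA13: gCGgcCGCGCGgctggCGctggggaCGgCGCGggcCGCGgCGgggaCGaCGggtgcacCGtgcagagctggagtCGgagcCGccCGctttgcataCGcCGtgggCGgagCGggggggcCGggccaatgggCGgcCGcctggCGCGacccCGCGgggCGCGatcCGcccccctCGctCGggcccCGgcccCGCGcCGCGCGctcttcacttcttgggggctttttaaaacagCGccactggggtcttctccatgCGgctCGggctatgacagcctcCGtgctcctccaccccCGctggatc
HOXC4: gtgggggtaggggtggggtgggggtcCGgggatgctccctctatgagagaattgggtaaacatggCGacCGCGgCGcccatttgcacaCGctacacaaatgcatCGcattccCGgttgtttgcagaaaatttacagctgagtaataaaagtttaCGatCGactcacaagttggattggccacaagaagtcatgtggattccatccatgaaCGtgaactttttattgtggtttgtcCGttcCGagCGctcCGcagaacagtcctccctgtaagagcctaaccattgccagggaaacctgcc
HOXD13: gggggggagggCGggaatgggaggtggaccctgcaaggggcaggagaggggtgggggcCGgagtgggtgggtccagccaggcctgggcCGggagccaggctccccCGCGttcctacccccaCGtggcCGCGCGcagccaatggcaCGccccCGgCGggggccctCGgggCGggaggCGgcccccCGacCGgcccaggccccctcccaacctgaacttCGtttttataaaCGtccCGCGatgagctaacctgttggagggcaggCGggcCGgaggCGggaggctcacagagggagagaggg

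The HOXC4 window is also the RefSeq window of HOXC5, letter for letter, so both genes are annotated from a common start. Of the 39 genes, 20 had windows in the RefSeq table, 27 in all. The HOX windows held a median of 22 CpG dinucleotides, against 14 in all 35116 RefSeq windows, and the printed ones ranged from 15 at HOXC4 to 44 at HOXA13. HOX genes averaging 1 FPKM or more in either table had a median of 25 CpG over 11 windows of 10 genes. The other HOX genes had 17 over 16 windows of 10 genes. Many of those 16 windows were alternative starts of 1 gene, HOXA3, with 0 to 29 CpG, and the common HOXC4 and HOXC5 window counts for both genes. These medians are therefore per window and do not compare genes evenly. A TATAAA motif on either strand stood in 5 of the 27 HOX windows (18.5%), against 11.5% of all windows, and both HOXA10 windows, HOXA9 and HOXD13 were among them. The homeodomain core TAATTA, which reads the same on both strands, stood in 2 windows (7.41%), against 4.84% of all windows. CCGCCC on either strand stood in 13 (48.1%), against 45.0%. These are counts of letters in the windows and were not tested.

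The values are FPKM, fragments scaled to transcript length and library size, which can be compared between genes. Absolute depth is unknown. Relative depth, from the ratios of low values, was lowest in BIX-01294 (0.555 of DMSO) and highest in SAHA (1.24) among replicate 1 libraries. Among replicate 2 libraries it lay between 0.676 of DMSO in GSK343 and 0.809 in 2-PCPA. Each library had 12045 to 13157 genes with at least 1 FPKM. The 2-PCPA replicate 1 library stood apart, with 28.0% of olfactory receptor rows above 0 FPKM, against 2.40% to 7.49% in the other 13 libraries. Osteoblast and mesenchymal markers RUNX2, COL1A1 and VIM were present in all libraries, whereas COL1A2 stayed under 0.1 FPKM and IBSP at or under 0.290 FPKM. ALPL ranged from 0 to 4.76 FPKM. BGLAP, the gene of osteocalcin, was listed at 0 in all 10 libraries of the replicate 1 table and at 41.7 to 50.9 FPKM in the replicate 2 table. Of the neural markers, TUBB3 was at 43.9 to 162 FPKM, NES at 2.50 to 23.8 FPKM and SOX2 at 0.145 to 3.20 FPKM. Of the epithelial markers, the keratins KRT8 and KRT18 were at 193 to 734 FPKM. EPCAM was at 0.427 to 2.51 FPKM and CDH1 at 0.0746 to 0.649 FPKM. The blood and endothelial markers PTPRC, CD3E, HBB, PECAM1 and CDH5 did not pass 0.309 FPKM. In bulk RNA, fewer cells expressing a gene and less RNA per cell cannot be told apart.

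In the replicate 2 table HOXA9 and HOXA10 carried identical values in every library, and so did HOXC4, HOXC5 and HOXC6. These are called locus values, and a row named HOXA10-HOXA9 carried that of HOXA9 and HOXA10. The HOXA9 and HOXA10 value was 11.9 FPKM in 2-PCPA, 10.5 in GSK343, 12.4 in rapamycin and 11.1 in DMSO. The HOXC4, HOXC5 and HOXC6 value was 20.1 FPKM in 2-PCPA, 22.6 in GSK343, 17.4 in rapamycin and 22.2 in DMSO. In the replicate 1 table, where these genes had values of their own, DMSO cells had 3.95 FPKM of HOXA9 and 3.75 of HOXA10, and 3.55 of HOXC4, 1.55 of HOXC5 and 14.3 of HOXC6. Their sums in DMSO were 7.70 FPKM for HOXA9 with HOXA10 and 19.4 FPKM for HOXC4 to HOXC6. Among genes averaging 1 FPKM or more, such sets took in 954 of 13259 rows of the replicate 2 table (7.20%), against 0 of 12804 rows of replicate 1. The 5 genes are left out of medians and counts of fold changes that use replicate 2, whereas counts of genes by level, such as those at 1 FPKM or more, hold each of them at its locus value.

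U2OS cells expressed genes of all 4 HOX clusters, with the lowest summed level in HOXD. At least 1 FPKM was reached by 25 of the 39 genes in DMSO replicate 1 and 24 in replicate 2. In either table, an average of 1 FPKM or more was reached by 8 of 11 HOXA, 7 of 10 HOXB, 8 of 9 HOXC and 3 of 9 HOXD genes. Summed over the cluster, DMSO cells had 56.2 and 54.3 FPKM of HOXB in replicates 1 and 2, 54.4 and 63.0 of HOXC, 22.2 and 29.5 of HOXA, and 13.3 and 14.2 of HOXD, with a shared locus value counted once. HOXB stood above HOXC in replicate 1 and below it in replicate 2, while HOXA and HOXD kept the lower places.

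Among the anterior genes, numbered 1 to 3, HOXB3 had 5.42 and 6.08 FPKM in DMSO replicates 1 and 2. HOXA2 and HOXB2, hindbrain genes, stayed under 0.4 FPKM in DMSO, and HOXB1, needed for the facial nerve, was listed at 0 in all 14 libraries.

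Among the central genes, HOXB7 had the highest level of any HOX gene in DMSO replicate 1, at 21.4 FPKM, and 19.1 FPKM in replicate 2. In the same order of DMSO libraries, HOXC8, a gene of the thoracic region, had 5.83 and 4.70 FPKM, HOXD8 5.28 and 6.36 FPKM and HOXB6 4.60 and 3.91 FPKM. HOXA4, with 2.33 and 1.58 FPKM, and HOXA5, with 1.13 and 1.06 FPKM, were near the lower end, and HOXA6 (0.967 and 0.48 FPKM) and HOXD4 (1.01 and 0.439 FPKM) were lower still in replicate 2. HOXB4, known for expanding blood stem cells, was at 0.296 and 0.315 FPKM. HOXB8, which in mice holds myeloid progenitors immature, was at 0.168 and 0.593 FPKM, both values under 1 FPKM although its neighbours HOXB7 and HOXB9 lay over 16.

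The posterior genes, numbered 9 to 13, were expressed from all clusters. HOXB9 had 19.6 and 16.9 FPKM in DMSO, so its range over the tables overlapped that of HOXB7. In DMSO replicates 1 and 2, HOXC13, needed for hair and nails, had 9.10 and 10.6 FPKM, HOXC9 had 8.20 and 9.77 FPKM and HOXC10 7.73 and 11.0 FPKM, and the order of these 3 was not the same in both tables. HOXB13, known from prostate development, had 3.50 and 5.29 FPKM, and HOXA13, which shapes digits and the genital tract, 1.98 and 1.91 FPKM. HOXD13, its counterpart in the HOXD cluster, and HOXC12 were listed at 0 in all 14 libraries, and HOXD12 was above 0 only in 2-PCPA replicate 2, at 0.194 FPKM. HOXC11 had 4.14 and 4.77 FPKM, and HOXD10 0.170 and 0.540 FPKM. HOXD11 was at 2.49 FPKM in DMSO replicate 1 and at 0.305 FPKM in replicate 2, and HOXA7 at 1.65 and 6.10 FPKM, so these genes differed widely between the tables without any compound. In all, 7 of the 39 genes stayed under 1 FPKM in every library.

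**Figure D1:**
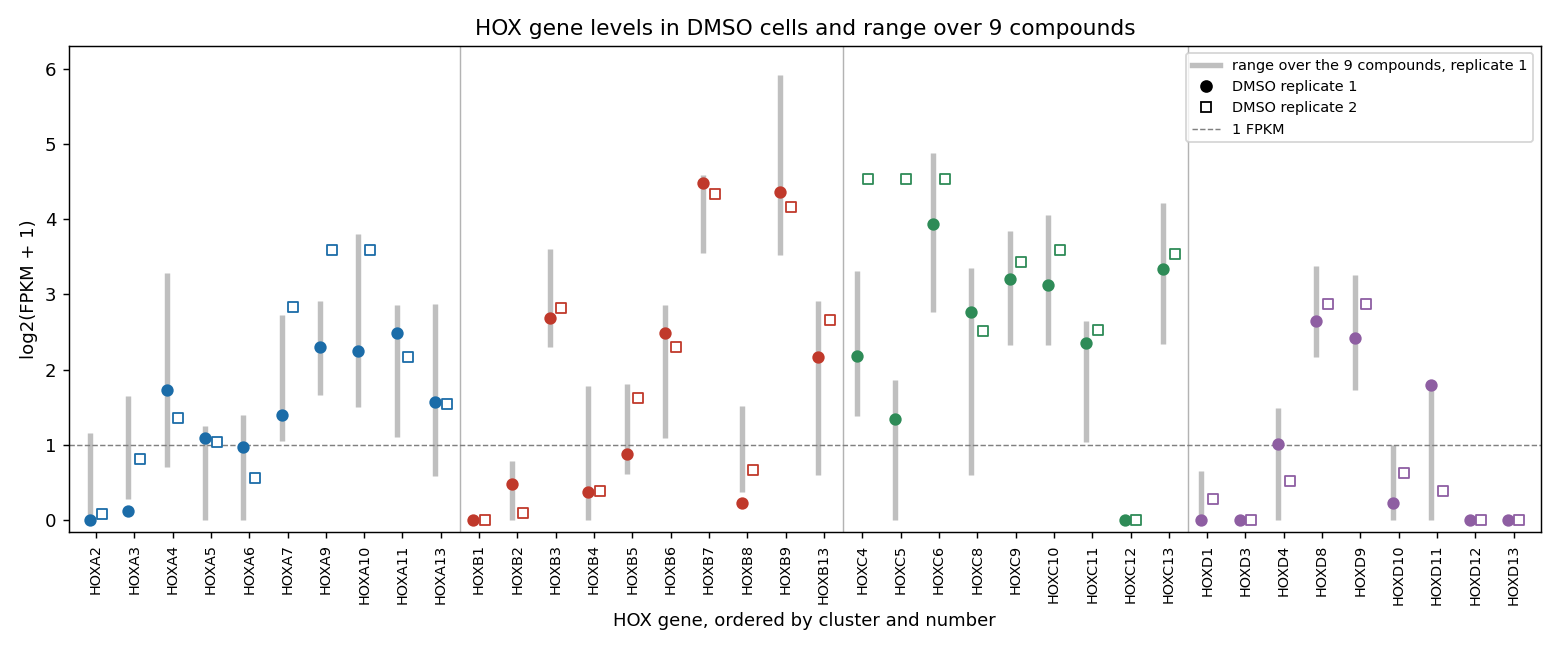
Levels of 38 HOX genes as log2(FPKM + 1), ordered by cluster and number. Grey bars span the 9 compound libraries of the replicate 1 table, filled circles are DMSO replicate 1 and open squares DMSO replicate 2. HOXB7 and HOXB9 stand highest in DMSO replicate 1, at 21.4 and 19.6 FPKM, and HOXB1, HOXC12 and HOXD13 at 0. The squares of HOXA9 and HOXA10, and those of HOXC4 to HOXC6, are shared locus values.

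Some low values moved in steps, and the genes shown here were picked because all their values above 0 did so. For this, each value was multiplied by the relative depth of its library. In the replicate 1 table all 10 values of HOXB8 were then within 0.15 of a whole multiple of 0.166 FPKM. That is what 1 fragment is worth in DMSO if whole fragments were counted. On that scale HOXB8 had 9 steps in BRD4770, 8 in VPA, 7 in SAHA, 6 in GSK343 and in GSK-J4 and 1 in DMSO. HOXD10 moved in steps of 0.165 FPKM, with 6 in GSK343, 4 in GSK-J4 and 1 in DMSO. HOXA5, a lung and trachea gene, had 5 steps of 0.184 FPKM in GSK-J4, 4 in GSK343 and 6 in DMSO. On that reading, 1 FPKM of such a gene in the replicate 1 table rested on few fragments. Other low genes of that table fitted less fully. HOXD11 had 5 of 8 values above 0 within 0.15 of a whole multiple of its lowest, and HOXA6 had 6 of 8. The step of HOXB2 was 0.191 FPKM in the replicate 1 table and 0.0690 FPKM in the replicate 2 table.

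Tests covered the groups with 2 libraries. The 24 HOX genes averaging 1 FPKM or more over these 8 libraries were tested, among 12603 genes in all, and the 15 others were not. Summaries use the 19 tested genes with values of their own in both tables. Fold changes are differences in log2(FPKM + 1), which understates the change of low genes. Nothing in the labels tells whether replicates came from separate cultures, so the p-values cover the spread between libraries, which may be technical.

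HOX genes were on balance slightly higher in GSK343 cells than in DMSO cells, and no single gene passed the test. By limma with Benjamini-Hochberg adjustment at 0.05, 0 of the 19 HOX genes were called, where the background over all tested genes was 0.00793% higher and 0.00793% lower. At an unadjusted p under 0.05, 1 HOX gene was higher, HOXD9 (background 3.30%), and 0 were lower (background 0.920%). The median HOX log2 fold change was 0.29, against 0.03 over all tested genes. By replicate it was 0.23 and 0.13, against 0.03 and 0.01 for all genes. Higher in both replicates were 10 of 19 HOX genes (34.6% of all tested genes), and lower in both was 1 (26.7%). The median depended on 1 library, being 0.073 without GSK343 replicate 1, and it was 0.072 with no filter on low values.

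HOXD9, a gene of the developing limb in mice, had 8.59 and 8.03 FPKM in GSK343 replicates 1 and 2, against 4.36 and 6.34 FPKM in DMSO. Both GSK343 values exceeded both DMSO values, and they differed by 0.57 ± 0.24 log2 (SE, with 2 libraries per group; adjusted p = 0.949 by limma), with a 95% interval of 0.016 to 1.12. HOXB5 had 2.46 and 2.37 FPKM in GSK343, against 0.841 and 2.08 FPKM in DMSO, a log2 fold change of 0.52 ± 0.28, with 0.91 in replicate 1 and 0.13 in replicate 2. HOXC9 had 13.3 and 10.7 FPKM in GSK343, against 8.20 and 9.77 FPKM in DMSO. HOXA11, a gene of the forelimb and kidney in mice, had 6.26 and 4.64 FPKM in GSK343, against 4.61 and 3.49 FPKM in DMSO, and its log2 fold changes of 0.37 and 0.33 were close between replicates.

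HOXB3 had 7.74 and 7.21 FPKM in GSK343, against 5.42 and 6.08 FPKM in DMSO. It was higher within both tables, by 0.33 ± 0.22 log2. HOXA13 was the 1 gene lower in both, with 1.74 and 1.60 FPKM in GSK343, against 1.98 and 1.91 FPKM in DMSO, and its log2 fold change was -0.14 ± 0.27. HOXA7, chosen after its values were seen, had 4.82 and 5.41 FPKM in GSK343, against 1.65 and 6.10 FPKM in DMSO. Its log2 fold change was 1.14 in replicate 1 and -0.15 in replicate 2.

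The cluster medians were not alike in both tables. In GSK343 the HOXB median was 0.23 log2 in replicate 1 and 0.18 in replicate 2, with 5 of 6 tested HOXB genes higher in both. The HOXC median was 0.64 in replicate 1 and -0.02 in replicate 2, with 1 of 5 genes higher in both. HOXC13 had 15.3 and 10.4 FPKM in GSK343, against 9.10 and 10.6 FPKM in DMSO, and HOXC10 had 12.9 and 10.2 FPKM in GSK343, against 7.73 and 11.0 FPKM in DMSO. The HOXA median was 0.14 in replicate 1 and 0.092 in replicate 2. Both tested HOXD genes with their own values, HOXD8 and HOXD9, were higher in both replicates, but HOXD8 by only 0.0069 and 0.13 log2. In rapamycin both were also higher in both replicates, HOXD8 by 0.31 and 0.26 log2 and HOXD9 by 0.34 and 0.46. Summed over all HOX genes, GSK343 reached 130% of DMSO in replicate 1 and 106% in replicate 2. Differences between clusters were not tested.

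Genes near 0 in the HOXD cluster were also near 0 in GSK343. HOXD3 was at 0 and 0.0678 FPKM in GSK343, against 0 and 0 FPKM in DMSO, HOXD1 at 0 and 0 FPKM in GSK343, against 0 and 0.217 FPKM in DMSO, and HOXD12 and HOXD13 were listed at 0 in both groups. HOXA3, under the level for testing, had 2.15 and 1.12 FPKM in GSK343, against 0.0876 and 0.756 FPKM in DMSO, and was the only member of the anterior HOXA genes over 1 FPKM in GSK343 and under it in DMSO in both tables. Counting all genes at 1 FPKM or more, GSK343 had 25 and 26 of 39, against 25 and 24 in DMSO.

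GSK-J4 cells had the highest summed HOX level of the replicate 1 table, 231 FPKM, against 146 FPKM in DMSO. This compound had 1 library, so no test was made, and fold changes over 2 on the scale of FPKM + 1 were counted among the 24 HOX genes averaging 1 FPKM or more in that table. In GSK-J4, 4 were past 2-fold higher, HOXA4, HOXA10, HOXA13 and HOXB9, where 8.92% of 12804 genes were, and 0 were past 2-fold lower (5.96% of genes). Higher than DMSO were 17 of 24 (50.2% of genes). In GSK343 replicate 1 the same counts were 1 past 2-fold higher, HOXA7 (4.78%), 1 past 2-fold lower, HOXD11 (1.44%), and 19 of 24 higher (54.0%). In GSK343 replicate 2, 0 of 20 HOX genes were past 2-fold higher (1.00%) and 0 lower (0.965%). HOXD11 had 0.402 and 0.451 FPKM in GSK343 replicates 1 and 2, against 2.49 and 0.305 FPKM in DMSO, so its direction was not the same in both. The HOX median in GSK-J4 was 0.35 log2, against 0.00 for all genes. With a pseudocount of 5 in place of 1, the GSK-J4 count past 2-fold higher was 2. GSK-J4 was the library with the highest value for 8 of the 24 HOX genes, against 14.9% of all genes, and 30 of 39 HOX genes reached 1 FPKM there, against 25 in DMSO replicate 1.

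GSK-J4 and GSK343 are set side by side in the replicate 1 table, although their doses and times differ and they share the DMSO library. HOXB9 had 59.0 FPKM in GSK-J4, 20.5 in GSK343 and 19.6 in DMSO. HOXA10, known from the uterus and from leukaemia, had 12.9 FPKM in GSK-J4, 5.73 in GSK343 and 3.75 in DMSO. HOXA4 had 8.73 FPKM in GSK-J4, 2.12 in GSK343 and 2.33 in DMSO. These genes, and HOXA13 with 6.35 FPKM in GSK-J4, 1.74 in GSK343 and 1.98 in DMSO, were higher in GSK-J4 than in GSK343 or DMSO. GSK343 lay above DMSO for HOXA10 and HOXB9 and below it for HOXA4 and HOXA13. In BRD4770, HOXA10 and HOXA13 were near their GSK-J4 levels, at 11.8 and 5.50 FPKM.

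Other genes ran the other way between the compounds. HOXC13 had 4.09 FPKM in GSK-J4, 15.3 in GSK343 and 9.10 in DMSO, and HOXC4 had 1.65 in GSK-J4, 6.23 in GSK343 and 3.55 in DMSO. HOXB13 had 1.88 FPKM in GSK-J4, 4.28 in GSK343 and 3.50 in DMSO. For these 3 genes GSK-J4 lay below DMSO and GSK343 above it. HOXB3 (11.1 FPKM in GSK-J4, 7.74 in GSK343, 5.42 in DMSO) and HOXD9 (7.45 in GSK-J4, 8.59 in GSK343, 4.36 in DMSO) lay above DMSO in both.

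By cluster, the summed level in GSK-J4 was 217% of DMSO for HOXA, 185% for HOXB, 106% for HOXC and 159% for HOXD. In GSK343 replicate 1 it was 152% for HOXA, 115% for HOXB, 139% for HOXC and 116% for HOXD, and in replicate 2 it was 105%, 114%, 99.2% and 112% of DMSO in the same order of clusters. HOXB9 alone made up 59.0 of the 104 FPKM of HOXB in GSK-J4. HOXB4 had 2.44 FPKM in GSK-J4, 0.409 in GSK343 and 0.296 in DMSO, and no other library of either table exceeded 0.454 FPKM. HOXD4 had 1.82 FPKM in GSK-J4, 0.224 in GSK343 and 1.01 in DMSO. HOXB1, HOXC12, HOXD12 and HOXD13 stayed at 0 in GSK-J4. The relative depth of the GSK-J4 library was 0.662 of DMSO, and its part in these values was not tested.

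**Figure D2:**
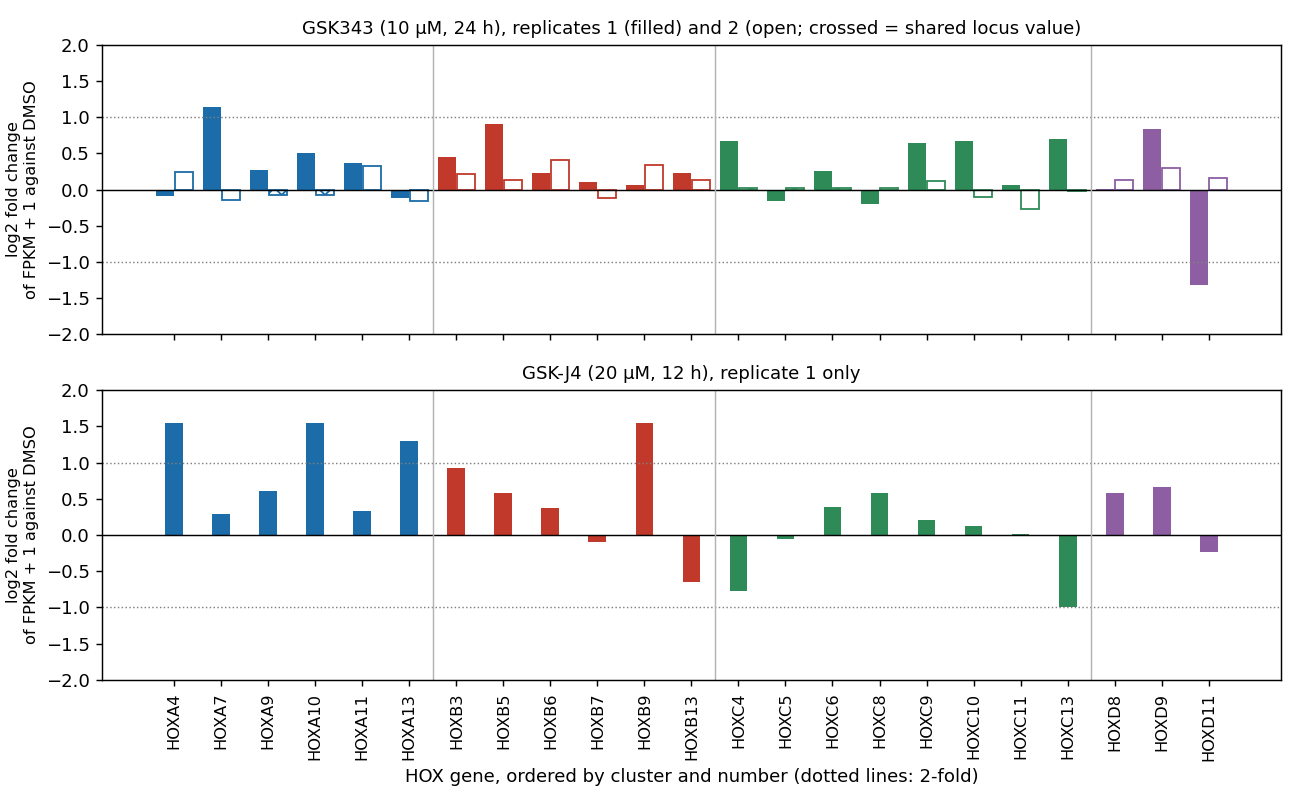
Log2 fold change of FPKM + 1 against the DMSO library of the same table for 23 HOX genes, ordered by cluster and number, in GSK343 (upper panel, replicate 1 filled and replicate 2 open, crossed where the value is shared by a locus) and GSK-J4 (lower panel, 1 library). HOXA4, HOXA10, HOXA13 and HOXB9 pass the dotted 2-fold line in GSK-J4; HOXA7 and HOXD11 pass it in GSK343 replicate 1 and no gene does in replicate 2.

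BRD4770 cells combined high values of some HOXA genes with low values of HOXC and HOXD. Past 2-fold higher were 2 of 24 HOX genes, HOXA10 and HOXA13 (5.94% of genes), and past 2-fold lower were 2, HOXC8 and HOXD11 (4.84%). The HOXA median was 0.74 log2, the HOXC median -0.39 and the median of all genes -0.01. HOXA10 had 11.8 FPKM in BRD4770, against 3.75 in DMSO, HOXA13 5.50 in BRD4770, against 1.98 in DMSO, and HOXA4 5.08 in BRD4770, against 2.33 in DMSO. Within the same cluster HOXA11 was at 2.18 FPKM in BRD4770, against 4.61 in DMSO, and HOXA9 at 2.17 in BRD4770, against 3.95 in DMSO. Neighbouring posterior HOXA genes thus stood on opposite sides of DMSO as listed. HOXA9 and HOXA10, which carry a locus value in the other table, summed to 13.9 FPKM in BRD4770, against 7.70 in DMSO. How fragments were divided between these rows was not tested. HOXC8 had 2.41 FPKM in BRD4770, against 5.83 in DMSO, HOXC9 4.04 in BRD4770, against 8.20 in DMSO, and HOXD11 was listed at 0 in BRD4770, against 2.49 FPKM in DMSO. The HOXD11 folds past 2-fold in BRD4770, GSK343, SAHA and 2-PCPA all share that DMSO library, whereas DMSO replicate 2 had 0.305 FPKM.

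BIX-01294 was given at another dose and time. Past 2-fold higher was 1 of 24 HOX genes, HOXC4 (9.97% of genes), and past 2-fold lower were 5, HOXA4, HOXB6, HOXB13, HOXC5 and HOXC11 (6.04%). HOXC4 had 8.94 FPKM in BIX-01294, against 3.55 in DMSO, and HOXC6 28.4 in BIX-01294, against 14.3 in DMSO. HOXB13 had 0.512 FPKM in BIX-01294, against 3.50 in DMSO, HOXB6 1.13 in BIX-01294, against 4.60 in DMSO, and HOXA4 0.636 in BIX-01294, against 2.33 in DMSO. HOXC5, between the genes HOXC4 and HOXC6 that stood high, was listed at 0 in BIX-01294, against 1.55 FPKM in DMSO. HOXC4 to HOXC6, which carry a locus value in the other table, summed to 37.3 FPKM in BIX-01294, against 19.4 in DMSO. How fragments were divided among them was not tested. The HOX median was -0.30 log2, against 0.06 for all genes, but this depended on the filter on low values, as it was 0.23 over HOX genes averaging 5 FPKM or more and -0.047 with no filter. BIX-01294 held the lowest value for 8 of 24 HOX genes, against 13.6% of genes. This library had the lowest relative depth, 0.555, and the part of depth was not tested.

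SAHA cells had low values of HOXC6, HOXC8 and HOXC11 and high values of HOXC10 and HOXC13. Past 2-fold lower were 5 of 24 HOX genes, HOXA11, HOXC6, HOXC8, HOXC11 and HOXD11 (3.83% of genes). HOXC8 had 0.520 FPKM in SAHA, against 5.83 in DMSO, HOXC6 5.83 in SAHA, against 14.3 in DMSO, and HOXA11 1.15 in SAHA, against 4.61 in DMSO. HOXC13 had 17.6 FPKM in SAHA, against 9.10 in DMSO, and HOXC10 15.6 in SAHA, against 7.73 in DMSO. Both were the highest values of the replicate 1 table for their genes, and the HOXC8 and HOXC6 values the lowest. SAHA had the greatest relative depth of the table, at 1.24 of DMSO.

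With a pseudocount of 5, the counts of HOX genes past 2-fold were 0 for BRD4770, BIX-01294 and VPA, and the lower count of SAHA was 0. VPA and UNC1215 had few HOX genes past 2-fold with a pseudocount of 1. In VPA, 1 HOX gene was past 2-fold higher, HOXA7 with 5.60 FPKM in VPA, against 1.65 in DMSO (2.81% of genes), and 0 were past 2-fold lower (1.59%). HOXC8 was at 4.54 FPKM in VPA, against 5.83 in DMSO, and HOXC13 at 8.75 in VPA, against 9.10 in DMSO. The dose of SAHA and that of VPA differed, and the labelled VPA dose could not be checked against another source. In UNC1215, 0 HOX genes were past 2-fold higher (1.80% of genes) and 0 lower (1.26%), and HOXA13 came nearest, at 0.507 FPKM in UNC1215, against 1.98 in DMSO. HOXA7 was also high in UNC1215, at 4.08 FPKM, but these HOXA7 folds share the DMSO library at 1.65 FPKM, whereas DMSO replicate 2 had 6.10 FPKM.

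**Figure D3:**
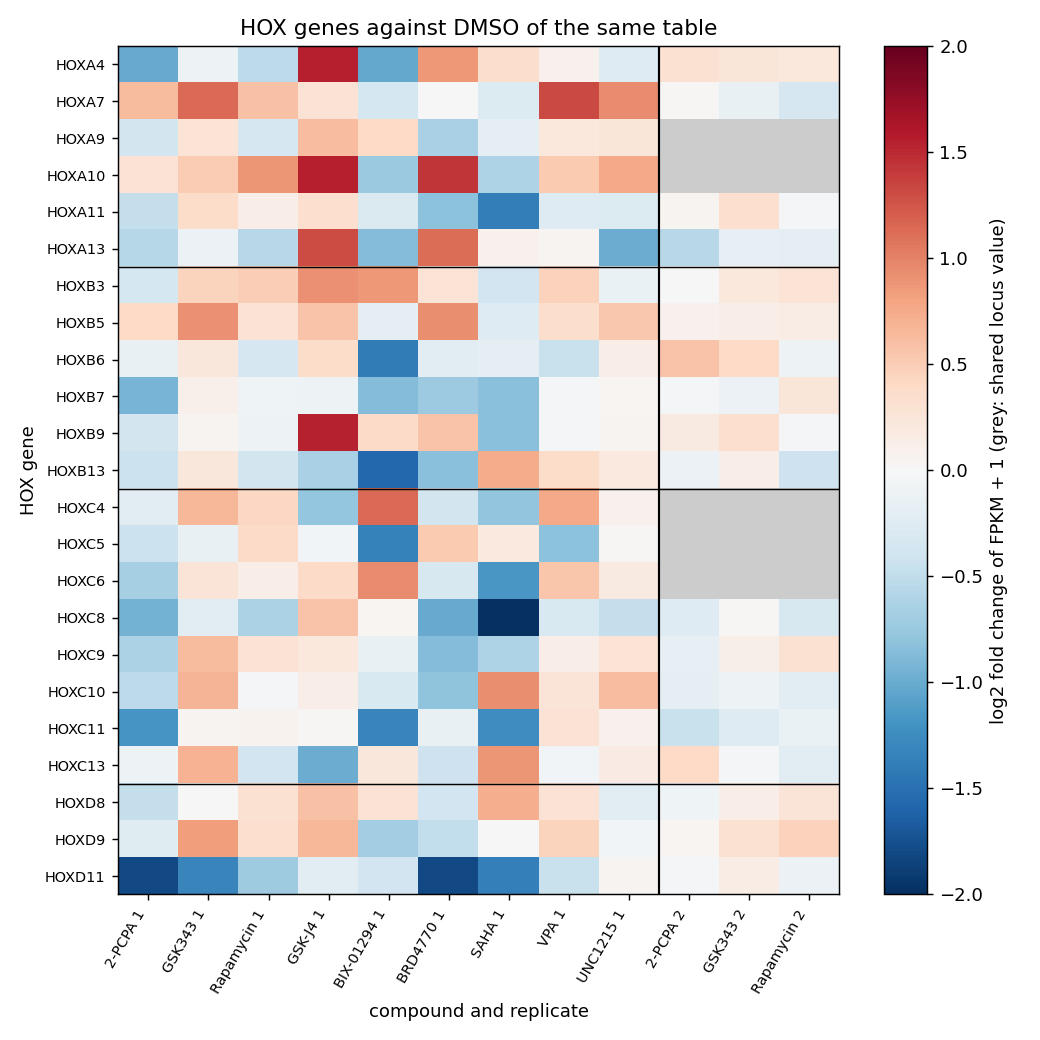
Log2 fold change of FPKM + 1 for 23 HOX genes (rows, by cluster) in the 9 compound libraries of the replicate 1 table and, right of the line, the 3 of the replicate 2 table, each against DMSO of its table; red is higher, blue is lower, and grey cells are shared locus values. The strongest red cells are HOXA4 and HOXA10 (1.55 each) and HOXB9 (1.54) in GSK-J4, the strongest blue cell is HOXC8 in SAHA (-2.17, past the end of the colour scale), and replicate 2 columns are pale.

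In rapamycin the HOX median lay near that of all genes. By limma 0 of 19 were called (background 0.0% higher and 0.0159% lower), and 0 had an unadjusted p under 0.05 (3.22% higher and 3.24% lower). The HOX median was -0.03 log2, against -0.05 for all genes, with 6 of 19 higher in both replicates (25.5%) and 8 lower in both (37.1%). HOXD9 had 5.79 and 9.11 FPKM in rapamycin, against 4.36 and 6.34 FPKM in DMSO, and HOXB3 8.05 and 7.52 FPKM in rapamycin, against 5.42 and 6.08 FPKM in DMSO. HOXC8 had 3.39 and 3.58 FPKM in rapamycin, against 5.83 and 4.70 FPKM in DMSO, and HOXB13 2.50 and 3.75 FPKM in rapamycin, against 3.50 and 5.29 FPKM in DMSO. The log2 fold changes were 0.40 ± 0.24 for HOXD9, 0.38 ± 0.22 for HOXB3, -0.48 ± 0.23 for HOXC8 and -0.38 ± 0.21 for HOXB13 (SE, n = 2 per group), and the smallest adjusted p over HOX genes was 0.757 by limma.

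In 2-PCPA the HOX median lay near that of all genes in each replicate. By limma 0 of 19 were called (background 0.00793% higher and 0.0159% lower), with a smallest adjusted p of 0.592. At an unadjusted p under 0.05, 2 were lower, HOXC11 and HOXC8 (5.99% of genes), and 0 higher (1.49%). The HOX median was -0.43 log2 in replicate 1 and 0.03 in replicate 2, against -0.42 and 0.01 for all genes. HOXC11, a posterior gene, had 1.26 and 3.24 FPKM in 2-PCPA, against 4.14 and 4.77 FPKM in DMSO, and HOXC8 2.53 and 3.76 FPKM in 2-PCPA, against 5.83 and 4.70 FPKM in DMSO. HOXA13 had 0.999 and 0.977 FPKM in 2-PCPA, against 1.98 and 1.91 FPKM in DMSO, and was the gene with the most even difference, -0.58 and -0.56 log2. Set against the all-gene medians of -0.42 and 0.01 in the same replicates, its difference was not even. In replicate 1 alone, 3 of 24 HOX genes were past 2-fold lower, HOXA4, HOXC11 and HOXD11 (8.19%), and 0 higher (1.27%). Of the 19 genes, 3 were higher in both replicates (11.5%) and 8 lower in both (42.2%). HOXA7 was among the higher ones, with 3.09 and 6.23 FPKM in 2-PCPA, against 1.65 and 6.10 FPKM in DMSO, but its log2 fold change turned to -0.14 without DMSO replicate 1. The replicate 1 library of 2-PCPA is the one with the many olfactory receptor rows above 0, and the part of this in the HOX values was not tested.

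GSK343 was also tested against the other replicated compounds. Against rapamycin, given for the same time, 0 of 19 HOX genes were called by limma (background 0.0793% higher and 0.0% lower), and 2 were higher at an unadjusted p under 0.05, HOXB13 and HOXB6 (4.05%), and 0 lower (1.55%). Higher in both replicates were 11 of 19 (39.6%) and lower in both 4 (19.4%). HOXB13 had 4.28 and 5.92 FPKM in GSK343, against 2.50 and 3.75 FPKM in rapamycin, which is 0.57 ± 0.21 log2 higher (SE, with 2 libraries per group; adjusted p = 0.875 by limma). Against 2-PCPA, given for another time, 0 were called (background 0.0238% higher and 0.00793% lower) and 5 were higher at an unadjusted p under 0.05, HOXA11, HOXC9, HOXC10, HOXC11 and HOXD9 (10.9%), and 0 lower (0.762%). Higher in both replicates were 13 of 19 (44.4%) and lower in both 0 (10.5%). The 2-PCPA replicate 1 library, which stands apart, enters this comparison. With 2-PCPA replicate 2 left out it was the only 2-PCPA library, assumed to vary like the other groups. Then limma called 2 of 19 HOX genes higher, HOXC9 and HOXC11, where 14.3% of all tested genes were called higher, and 0 lower, where 0.325% were.

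**Figure D4:**
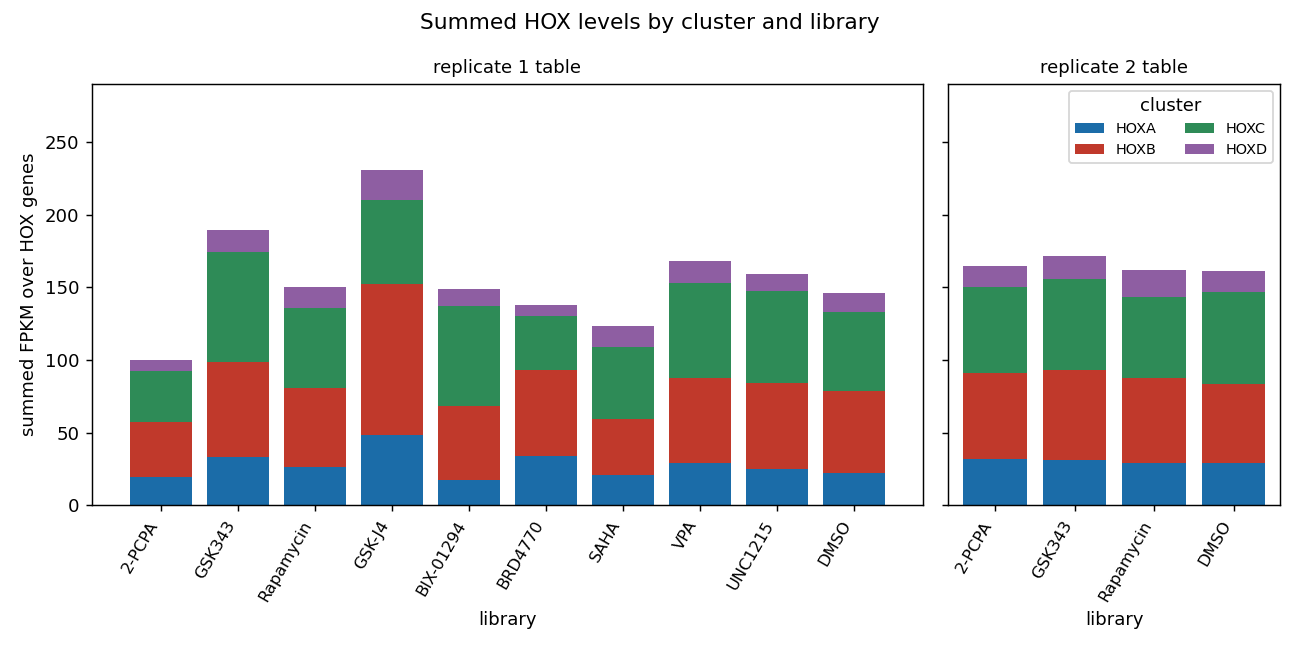
FPKM summed over the genes of each HOX cluster in every library, compounds left of DMSO, with the replicate 1 table on the left and the replicate 2 table on the right (a shared locus value counted once). The total is 231 FPKM in GSK-J4, 190 in GSK343 replicate 1 and 99.9 in 2-PCPA replicate 1, against 146 in DMSO replicate 1; in replicate 2 the compounds lie between 162 and 171 FPKM, against 161 in DMSO.

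HOX genes, like other genes, spread less in the replicate 2 table. Over the 10 libraries of the replicate 1 table the range of a HOX gene had a median of 1.76 log2, against 1.32 for all genes, and over the 4 libraries of replicate 2 it was 0.365, against 0.331 for all genes. HOXC8, HOXA4 and HOXB9 had the widest ranges in the replicate 1 table, at 2.74, 2.57 and 2.38 log2, and HOXB7 the narrowest, at 1.04. The numbers of libraries differ between the tables.

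Genes that act on HOX chromatin were measured in the same libraries. Over the lists of genes named from here on, limma called 0 in GSK343 against DMSO. At an unadjusted p under 0.05 by limma, KDM6B and HOXD-AS2 were higher and 0 were lower. By that rule 3.30% of all tested genes were higher and 0.920% lower. Over all tested genes, 34.6% were higher and 26.7% lower in both replicates of GSK343. Of 11 PRC2 genes, 0 were called by limma in GSK343, 0 were higher and 6 lower in both replicates. This was not particular to GSK343. In rapamycin 9 were lower in both (37.1% of all tested genes) and 0 higher (25.5%). In 2-PCPA 7 were lower in both (42.2%) and 0 higher (11.5%), and all these comparisons share the DMSO libraries. EZH2, the target of GSK343, had 8.04 and 12.8 FPKM in GSK343, against 11.8 and 14.8 FPKM in DMSO, which differ by -0.35 ± 0.23 log2 (SE, with 2 libraries per group), and SUZ12, its partner subunit, had 15.5 and 17.6 FPKM in GSK343, against 20.9 and 19.8 FPKM in DMSO. EED, the subunit that reads the mark, had 19.5 and 121 FPKM in GSK343, against 22.4 and 21.1 FPKM in DMSO, so only the replicate 2 library stood apart. Of 19 PRC1 genes 0 were called, 10 were higher and 2 lower in both replicates. CBX7, a reader of the mark, had 13.2 and 10.3 FPKM in GSK343, against 6.41 and 9.47 FPKM in DMSO. PHC2, which joins PRC1 into larger bodies, had 30.0 and 33.3 FPKM in GSK343, against 17.8 and 24.8 FPKM in DMSO. In rapamycin CBX7 had 13.1 and 13.8 FPKM and PHC2 33.5 and 46.3 FPKM. In 2-PCPA CBX7 had 6.09 and 10.2 FPKM and PHC2 17.7 and 75.4 FPKM. RING1, a catalytic subunit of PRC1, was listed at 0 in all 10 libraries of the replicate 1 table and at 53.3 to 65.6 FPKM in the replicate 2 table. It is among the 19 PRC1 genes but could count as neither higher nor lower in both replicates.

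KDM6B, a demethylase of the mark and a target of GSK-J4, had 12.1 FPKM in GSK-J4, 37.2 in BIX-01294, 8.47 in BRD4770 and 3.42 in DMSO replicate 1. The DMSO value was the lowest of the replicate 1 table, where rapamycin had 6.06 FPKM, SAHA 6.31, VPA 7.20, UNC1215 4.45 and 2-PCPA 3.46. In GSK343 it had 7.54 and 7.51 FPKM, against 3.42 and 6.01 FPKM in DMSO, which is 0.61 ± 0.27 log2 higher (SE, with 2 libraries per group; adjusted p = 0.949 by limma). KDM6A had 3.31 FPKM in GSK-J4, 7.53 in BIX-01294 and 2.58 in DMSO replicate 1. RYBP, a PRC1 subunit, stood at 76.8 FPKM in BIX-01294, against 15.4 in DMSO, and CBX2, another, at 3.65 in BIX-01294, against 22.5 in DMSO.

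Of 9 MLL complex genes and their cofactors, 0 were called in GSK343, with 2 higher and 3 lower in both replicates. For this and the next GSK343 counts, the shares over all tested genes were 34.6% higher and 26.7% lower in both. Of 7 tested PBX, MEIS and PKNOX genes, whose proteins bind DNA together with HOX proteins, 0 were called, with 2 higher and 2 lower in both. MEIS3 had 59.6 and 35.7 FPKM in GSK343, against 27.5 and 31.8 FPKM in DMSO. Of 14 tested developmental genes known as Polycomb targets outside the clusters, 0 were called by limma in GSK343, 9 were higher and 3 lower in both replicates, with a median of 0.22 log2. NKX2-2, a neural patterning gene, had 4.13 and 3.26 FPKM in GSK343, against 1.44 and 2.66 FPKM in DMSO, and MSX2 2.00 and 3.40 FPKM in GSK343, against 4.45 and 3.69 FPKM in DMSO. In GSK-J4, 11 of these 14 were higher than DMSO, where 50.2% of all genes were, with a median of 0.37 log2. Past 2-fold higher was 1 of them, where 8.92% of all genes were: FOXA2, an endoderm factor, with 4.43 FPKM in GSK-J4, against 1.70 in DMSO.

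Noncoding transcripts of the clusters varied as well, and without strand information they cannot be told apart from overlapping HOX transcripts. HOTAIR, from the HOXC cluster, had 4.17 and 2.73 FPKM in GSK343 and 2.40 FPKM in GSK-J4 replicate 1, against 3.62 and 3.58 FPKM in DMSO. HOTAIRM1, from the start of the HOXA cluster, had 7.16 and 11.0 FPKM in GSK343 and 14.3 FPKM in GSK-J4 replicate 1, against 6.62 and 7.57 FPKM in DMSO. HOXD-AS2 had 4.25 and 8.99 FPKM in GSK343, against 0.606 and 5.88 FPKM in DMSO, which is 1.12 ± 0.30 log2 higher (SE, with 2 libraries per group; adjusted p = 0.949 by limma). At an unadjusted p under 0.05 by limma it was also higher in 2-PCPA (2.63 and 7.27 FPKM) and in rapamycin (2.00 and 9.62 FPKM). In the replicate 1 table only BIX-01294, listed at 0, lay below DMSO for HOXD-AS2, and all compounds there share that DMSO library. HOTTIP, from the posterior end of HOXA, stayed under 0.3 FPKM in every library. EVX1 and EVX2, homeobox genes at cluster ends, were listed at 0 in all 14 libraries.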

How the data were processed

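The deposited files gave gene FPKM values computed by the authors. The submitters' processing notes name FastQC, cutadapt, TopHat2 and the build hg19. Which program gave the FPKM is not given in the sources used here, nor is the annotation. Per the labels' protocols, mRNA was isolated from total RNA. Strand is not stated.

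The replicate 1 table had 28502 rows and that of replicate 2 had 25209; 1 row named unknown was left out. All 8 libraries of the replicated groups entered 1 limma 3.58.1 fit (R 4.3.3) on log2(FPKM + 1), with the replicate number as a block, an intensity trend and Benjamini-Hochberg adjustment over 12603 genes averaging 1 FPKM or more. Deviations from group means correlated at 0.710 to 0.784 over 6 pairs of libraries with the same number, that is, of the same table. Residual degrees of freedom were 3 and prior ones 5.42; the median SE of a HOX gene was 0.25. The fit was tested on simulated data. For 1-library compounds, 12804 genes averaging 1 FPKM or more in the replicate 1 table were used (Python 3.11.15, pandas 2.3.3). FPKM hold no counts, so no intervals for counting error are given.

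Named genes were those averaging 1 FPKM or more, and up to 6 per direction among genes moving the same way in both replicates, or up to 5 per direction for 1 library; some picked by size are shown only in the plots. The members and lists were chosen with earlier results of these data known. The closing section gives the alternatives tried. Withheld genes are counted in the summaries but are not reported here by name.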

Additional observations from a re-analysis of the deposited data

How the results depend on the processing

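Over HOX genes, 507 fold changes were recomputed under the alternatives against DMSO: 0 were called (smallest adjusted p 0.0585), and 3 changed sign, HOXA7 in 2-PCPA without DMSO replicate 1 (-0.14; range with 1 library left out -0.14 to 0.79), and HOXA5 in rapamycin without rapamycin replicate 1 (-0.053) or DMSO replicate 2 (-0.035; range -0.053 to 0.35). GSK343 against 2-PCPA gave 2 HOX calls of 19 without 2-PCPA replicate 2, where 14.3% of all genes were called higher, and 0 under the other settings; the lone 2-PCPA library then left is the one that stands apart, and it is assumed to vary like the other groups.

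The HOX median of GSK343 was 0.29; it was 0.17 with a pseudocount of 5, 0.072 with no filter on low values, 0.21 with TPM scaling, 0.21 with the 5 genes of shared value, and 0.073 to 0.38 with 1 library of either group left out. That of rapamycin (-0.03) was -0.032 and -0.016 with pseudocounts of 0.1 and 5, 0 with no filter, 0.18 at a mean of at least 5 FPKM, 0.023 with median centring, 0.0034 with quantile normalization, -0.082 with TPM scaling, -0.0028 with the shared genes, and -0.068 to 0.031 with 1 library of either group left out. The HOX median was -0.30 in BIX-01294, -0.34 in BRD4770 and -0.27 in SAHA under the main settings. Without the filter it was -0.047 in BIX-01294, 0 in BRD4770 and -0.068 in SAHA. At a mean of at least 5 FPKM it was 0.23 in BIX-01294 and -0.61 in SAHA.

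Over all genes, calls in 2-PCPA, GSK343 and rapamycin (3, 2 and 2) became 0, 0 and 0 with a pseudocount of 0.1, 1, 1 and 0 with 5, 0, 0 and 0 with no filter, 1, 0 and 0 with no replicate block, 16, 18 and 26 with robust eBayes, 38, 46 and 66 without small RNA and clone rows, 14, 10 and 25 without rows at 0 throughout replicate 1, and 272, 0 and 0 with only both groups compared. With 1 library of the groups compared left out they ran from 7 to 47, 6 to 44 and 6 to 42. In GSK343 and rapamycin they were 1 and 4 at a mean of at least 5 FPKM, 0 and 5 with median centring, 0 and 0 with quantile normalization, and 0 and 0 without 2-PCPA replicate 1. GSK343 had 1 with TPM scaling, and rapamycin 1 with no trend and 5 without shared rows. The last setting, the shared genes, the omission of 2-PCPA replicate 1 and the comparisons between compounds were chosen after seeing the data. Depth limits HOX genes near 1 FPKM.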
